A study of Mus musculus with 6 samples.

Results

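The genes of cholesterol and fatty acid synthesis were followed through 6 single-colour Agilent mouse arrays of graft-reactive CD4+ T cells. The 33 members were listed by symbol: 18 enzymes of the sterol branch, 5 regulators or carriers of sterols, 8 enzymes of the fatty acid branch and 2 cholesterol efflux pumps. A probe named through its RefSeq accession was found for 32 of them, and none was found for Acat2, which condenses acetyl-CoA into acetoacetyl-CoA. Abca1 did not pass the filter, so 31 were among the 28249 genes on the arrays after filtering. Of the 32, 23 had a mean log2 intensity of at least 8 over the 6 arrays, an intensity of 256, and are called bright. The other 9 are called dim and are given by their intensity on each array.

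The cells were TEa cells, CD4+ T cells on a C57BL/6 background with a transgenic receptor (Vα2+Vβ6+) that recognises a Balb/c peptide. CD45.2+ TEa cells, either WT or Irf4-/-, were transferred on day -1 into CD45.1+ B6.SJL congenic mice, which received a Balb/c heart on day 0. The labels name no step that depletes the recipients' own cells. The transferred cells were sorted from recipient spleens on day 6. There were 3 groups of 2 arrays, each pair from independent experiments, and the number of recipients behind an array is not given in the sources used here. In the WT IgG group, recipients of WT cells had rat IgG, with no dose or day stated for them. In the Irf4 KO IgG group, recipients of Irf4-/- cells had 400 µg of rat IgG on days 0, 3 and 5. In the Irf4 KO blockade group, recipients of Irf4-/- cells had checkpoint blockade on the same days, with 200 µg of anti-PD-L1 plus 200 µg of anti-CTLA-4. No WT cells were exposed to blockade, so blockade and IgG were compared within 1 genotype only for cells labelled Irf4 KO. Blockade against WT IgG differs in both genotype and treatment, which cannot be told apart there. The comparisons ask how gene expression differs without IRF4, a factor that antigen receptor signals switch on, in T cells that meet a graft, and how it differs when inhibitory receptors are blocked in such cells.

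T cells that start to divide make cholesterol and fatty acids for new membrane. The mevalonate pathway turns acetyl-CoA into isoprenoids and then, through squalene and lanosterol, into cholesterol, whereas the fatty acid branch turns citrate-derived acetyl-CoA into long, desaturated chains. Both are transcribed under the SREBP factors, which SCAP carries out of the endoplasmic reticulum when sterols are scarce and INSIG proteins hold back when they are plentiful, and LXR receptors drive efflux pumps when sterols accumulate.

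The promoters of 3 sterol genes with large differences between the groups, Tm7sf2, Cyp51 and Mvd, are shown with that of Hmgcs1, whose groups overlapped, to let their motif content be compared. They are the 250 bases before the RefSeq start (build GRCm38.p6), 5′ to 3′ on the gene's strand. Capitals mark CCAAT, the box bound by NF-Y, GGGCGG, the box bound by Sp1, and TCACNCCAC, a form of the sterol regulatory element bound by SREBP, on either strand. Both NF-Y and Sp1 are known to act beside SREBP.
Tm7sf2 (chr19:6067851-6068100, minus strand): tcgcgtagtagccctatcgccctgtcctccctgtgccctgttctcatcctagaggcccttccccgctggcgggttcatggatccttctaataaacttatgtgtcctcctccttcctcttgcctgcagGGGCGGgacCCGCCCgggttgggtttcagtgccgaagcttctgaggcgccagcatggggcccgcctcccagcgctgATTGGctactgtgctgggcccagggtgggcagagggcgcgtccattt
Cyp51 (chr5:4104698-4104947, minus strand): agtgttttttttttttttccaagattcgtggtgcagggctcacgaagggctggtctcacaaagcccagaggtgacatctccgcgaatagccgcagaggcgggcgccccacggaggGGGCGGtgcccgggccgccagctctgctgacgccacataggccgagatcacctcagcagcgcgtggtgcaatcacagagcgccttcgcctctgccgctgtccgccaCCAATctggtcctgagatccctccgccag
Mvd (chr8:122443423-122443672, minus strand): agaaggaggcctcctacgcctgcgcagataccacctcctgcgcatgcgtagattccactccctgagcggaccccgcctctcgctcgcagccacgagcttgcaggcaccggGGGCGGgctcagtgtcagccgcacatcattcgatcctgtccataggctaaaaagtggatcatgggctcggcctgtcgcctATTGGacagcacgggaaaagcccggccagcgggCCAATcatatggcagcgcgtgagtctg
Hmgcs1 (chr13:119690101-119690350, plus strand): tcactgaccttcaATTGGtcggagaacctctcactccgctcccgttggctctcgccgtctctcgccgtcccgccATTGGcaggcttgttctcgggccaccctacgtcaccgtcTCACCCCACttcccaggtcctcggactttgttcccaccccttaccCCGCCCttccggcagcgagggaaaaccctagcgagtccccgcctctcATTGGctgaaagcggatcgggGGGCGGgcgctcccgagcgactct
Among the 4 genes shown, only Hmgcs1 held TCACNCCAC, as TCACCCCAC. Each of the 4 held CCAAT and GGGCGG at least once. RefSeq windows of 300 bases, from 250 before to 50 after a start, matched 25 members. CCAAT was in a window of 14 of 15 sterol genes with one and of 2 of 5 fatty acid genes, and in 37.4% of all 32851 windows. GGGCGG was likewise in a window of 14 of 15 sterol genes and 2 of 5 fatty acid genes, and in 35.7% of all windows. TCACNCCAC was in 1.24% of all windows and in that of 1 member, Hmgcs1. The LXR response element, AGGTCA repeated on the same strand after 4 bases, was in 0.0152% of all windows and in none of the 25 members. The motifs were searched on both strands, and no motif is contained in another. The shares describe these letters alone, and a member with several windows was counted if any of them held the motif.

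The arrays differed in their weak signals. Between 34.5% and 40.5% of probes exceeded background clearly in WT IgG and blockade, but 66.0% and 75.2% in Irf4 KO IgG. The 9 CD4 T cell markers were above background on every array, with summed intensities of 229238 to 417784. Of 11 B cell markers, 11 exceeded background in each Irf4 KO IgG array and 5 or 6 in each other array, with summed intensities of 4955 and 24851 against 574 to 807. Of 14 macrophage, monocyte and neutrophil markers, 14 and 12 exceeded it in Irf4 KO IgG and 7 to 9 in the others, with sums of 8653 and 68264 against 4420 to 7292. Dendritic cell markers above background numbered 4 and 5 of 6 against 1, erythroid markers 3 and 4 of 4 against 0 to 3, and CD8 T and NK cell markers 4 and 5 of 5 against 3. Sums overlapped for dendritic cell markers, 23943 and 13089 against 4777 to 13943, and for CD8 T and NK cell markers, 944 and 1507 against 735 to 1075. Erythroid sums were 174 and 1194 against 30.2 to 155. With 66.0% and 75.2% of all probes above background on the Irf4 KO IgG arrays, such counts alone do not show a cell type. None of these markers was at 0. The part of such cells in the members' values was not tested. The brighter Irf4 probe gave 673 and 1068 in WT IgG, 2128 and 3073 in Irf4 KO IgG and 2071 and 1703 under blockade. Where it lies relative to the deleted part is not given in the sources used here, so it checks no label, and the group names used here are those of the labels. All 6 arrays were on 1 slide, whose 2 rows held 1 array of each group. In bulk RNA, fewer cells of a type and less RNA per cell cannot be told apart.

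Levels of bright members are intensities after quantile normalisation among the 8582 bright genes, so each difference is relative to the other bright genes. They were compared with limma over all 6 arrays, with Benjamini-Hochberg adjustment over the 8582 genes and a threshold of 0.05. No bright member passed in any of the 3 comparisons. For Irf4 KO IgG against WT IgG, 0 of 23 members were called, where 1.86% of all bright genes were. For blockade against Irf4 KO IgG the count was 0 of 23 where 0.326% were, and for blockade against WT IgG it was 0 of 23 where 1.11% were. At an unadjusted limma p under 0.05, 6 members were lower and 0 higher on the Irf4 KO IgG arrays than in WT IgG, where 12.8% and 10.6% of bright genes were. Blockade against Irf4 KO IgG had 7 members higher and 1 lower by that measure, where 15.5% and 13% of bright genes were. Blockade against WT IgG had 2 higher and 2 lower, where 9.83% and 9.39% were. Over all 23, the Irf4 KO IgG arrays were above both WT IgG arrays for 2 members and below them for 10, where 23.1% and 29.2% of bright genes were. The blockade arrays were above both Irf4 KO IgG arrays for 13 members and below them for 3, where 34% and 28.9% were.

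The sterol branch lay low on both Irf4 KO IgG arrays. Relative to WT IgG, 12 of its 13 bright members had a negative log2 fold change, with a median of -0.27 where all bright genes had a median of -0.02 and 47.5% of them were above 0. Without WT IgG array 1, 4 of the 13 were above 0 and the median was -0.14. Relative to Irf4 KO IgG, 12 of 13 had a positive one under blockade, with a median of 0.42 where all bright genes had 0.03 and 53% were above 0. Leaving out any 1 of the 4 arrays compared kept 12 or 13 of 13 above 0, and the median was 0.27 without blockade array 2. Blockade against WT IgG had 8 of 13 above 0, with a median of 0.17, where 50.6% of bright genes were above 0. Because both comparisons use the same Irf4 KO IgG arrays, a low value there shows in both, and the 2 counts are not separate observations. Averaged over the 13 members, the log2 level was 10.05 and 9.78 on WT IgG arrays 1 and 2, 9.58 and 9.56 in Irf4 KO IgG, and 9.88 and 10.21 under blockade. Both Irf4 KO IgG arrays were below the 4 others, while WT IgG and blockade overlapped. The 2 Irf4 KO IgG arrays were 0.03 apart, against 0.27 for the WT IgG pair and 0.32 for the blockade pair.

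The higher array of the WT IgG pair and that of the blockade pair lay in the same row of the slide. Within that row the sterol mean was 0.63 higher under blockade than in Irf4 KO IgG, with 13 of 13 members higher. In the other row it was 0.33 higher, with 12 of 13 members higher and Hmgcs1 lower. Irf4 KO IgG was 0.47 below WT IgG in the first of these rows, with 12 of 13 members lower, and 0.22 below in the other, with 9 of 13 lower. Blockade was 0.16 and 0.10 above WT IgG. Each of these values sets 1 array against 1, so the members counted are not separate observations. No share of all bright genes is given within a row. With the row as a block, limma called 1 of the 23 bright members between Irf4 KO IgG and WT IgG, Tm7sf2 (adjusted p = 0.0498). That setting, with 2 residual degrees of freedom, called 1.03% of bright genes.

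**Figure D1:**
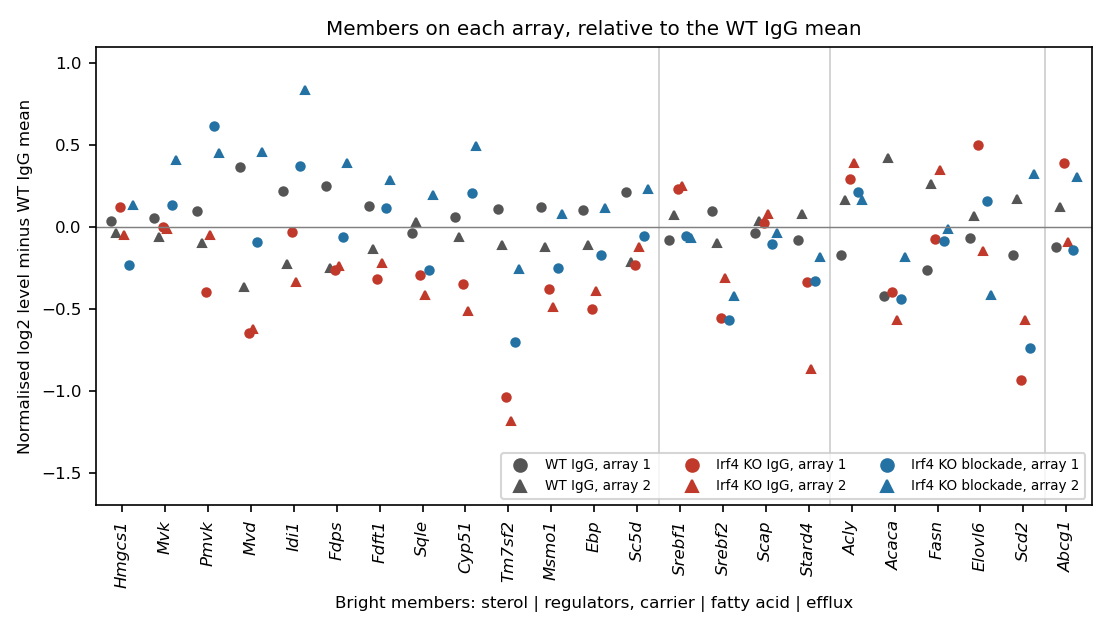
Normalised log2 level of each of the 23 bright members on each array, minus the mean of the 2 WT IgG arrays. Circles are array 1 and triangles array 2 of a group, and vertical lines part sterol genes, regulators with the carrier, fatty acid genes and efflux. Most sterol genes have their Irf4 KO IgG symbols under those of blockade, while the fatty acid genes show no such order.

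The upper mevalonate steps had mixed values. Hmgcs1, the HMG-CoA synthase at the head of the pathway, had levels of 1293 and 1230 in WT IgG, 1372 and 1222 in Irf4 KO IgG and 1073 and 1386 under blockade. The 3 groups overlapped, and its log2 fold changes were 0.04, -0.09 and -0.05 in the order Irf4 KO IgG against WT IgG, blockade against Irf4 KO IgG, and blockade against WT IgG. Mvk, mevalonate kinase, had 1495 and 1380, then 1439 and 1422, then 1574 and 1905. Both blockade arrays were above the 4 others, by 0.28 over Irf4 KO IgG (95% interval -0.06 to 0.62).

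Pmvk, phosphomevalonate kinase, had levels of 1821 and 1588 in WT IgG, 1294 and 1646 in Irf4 KO IgG and 2604 and 2327 under blockade. Its blockade arrays stood above all others, while the other groups overlapped. The log2 fold change was 0.75 against Irf4 KO IgG (SE 0.16, limma adjusted p = 0.0766) and 0.53 against WT IgG (SE 0.16, limma adjusted p = 0.175). A second bright Pmvk probe gave 0.80 and 0.52. Mvd, mevalonate diphosphate decarboxylase, had 390 and 235, then 193 and 196, then 284 and 416. Its Irf4 KO IgG arrays were the 2 lowest, and the log2 fold change was -0.64 against WT IgG (SE 0.29, limma adjusted p = 0.259) and 0.82 from Irf4 KO IgG to blockade (SE 0.29, limma adjusted p = 0.143). Idi1, the isopentenyl diphosphate isomerase, had 443 and 325, then 372 and 301, then 491 and 678. The blockade arrays were the 2 highest, 0.79 above Irf4 KO IgG (SE 0.24, limma adjusted p = 0.111) and 0.60 above WT IgG (SE 0.24, limma adjusted p = 0.248).

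The steps to squalene and its epoxide were lowest on average in Irf4 KO IgG, with smaller differences. Fdps makes farnesyl diphosphate, from which protein prenylation also draws, and had levels of 1747 and 1234 in WT IgG, 1222 and 1245 in Irf4 KO IgG and 1411 and 1923 under blockade. Fdft1, squalene synthase, had 1172 and 977, then 859 and 917, then 1162 and 1305, and its Irf4 KO IgG arrays were below the 4 others. Its log2 fold change was -0.27 against WT IgG and 0.47 from Irf4 KO IgG to blockade (SE 0.14, limma adjusted p = 0.113). A second bright Fdft1 probe gave -0.17 and 0.25. Sqle, squalene epoxidase, which is a rate-limiting step, had 634 and 663, then 530 and 486, then 541 and 742. Irf4 KO IgG was again below the others, by 0.35 against WT IgG (95% interval of the log2 fold change -0.79 to 0.08).

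Among bright members, the steps after lanosterol held the lowest adjusted p-value in both comparisons with Irf4 KO IgG. Tm7sf2, a sterol C14 reductase, had levels of 717 and 614 in WT IgG, 323 and 292 in Irf4 KO IgG and 407 and 557 under blockade. The 3 groups did not overlap, with blockade between the others. The log2 fold change from WT IgG to Irf4 KO IgG was -1.11 (95% interval -1.57 to -0.65), or 0.463 of the WT IgG level. Its limma adjusted p of 0.0530 was just above the threshold, so it was not called. From Irf4 KO IgG to blockade it was 0.63 (SE 0.19, limma adjusted p = 0.108), and from WT IgG to blockade -0.48 (SE 0.19, limma adjusted p = 0.249). Lbr, an inner nuclear membrane protein with the same reductase activity, had log2 fold changes of 0.12, 0.00 and 0.12 in the 3 comparisons, none of which passed.

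Cyp51, the lanosterol 14-demethylase, had levels of 453 and 416 in WT IgG, 341 and 305 in Irf4 KO IgG and 501 and 611 under blockade. The 3 groups did not overlap, and blockade was the highest. Its log2 fold change was 0.78 from Irf4 KO IgG to blockade (SE 0.15, limma adjusted p = 0.0709) and -0.43 from WT IgG to Irf4 KO IgG (SE 0.15, limma adjusted p = 0.170). Msmo1, the C4 methylsterol oxidase, had 1176 and 996, then 831 and 771, then 910 and 1144. Ebp, the sterol isomerase, had 10720 and 9240, then 7050 and 7587, then 8838 and 10783. In both genes Irf4 KO IgG lay below the 4 other arrays, while WT IgG and blockade overlapped. Their log2 fold changes against WT IgG were both -0.44, and those from Irf4 KO IgG to blockade were 0.35 for Msmo1 and 0.42 for Ebp. A second bright Ebp probe gave -0.48 and 0.54. Sc5d, which sets the C5 double bond, had 639 and 476, then 470 and 506, then 530 and 649. Its blockade arrays were above both Irf4 KO IgG arrays, by 0.27 (95% interval -0.20 to 0.73).

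Over the 13 sterol members, the groups did not overlap, with blockade above Irf4 KO IgG, for 12 members, where 34% of bright genes showed this. Irf4 KO IgG lay below WT IgG without overlap for 7 of 13, where 29.2% of bright genes did. Blockade lay above WT IgG without overlap for 4 of 13 and below for 1 of 13, where 27.7% and 27.1% did. Split by mean level, bright genes had medians between 0.00 and 0.04 from Irf4 KO IgG to blockade, where the 4, 3 and 5 sterol members in the lower 3 ranges had medians of 0.78, 0.32 and 0.42. The top range held Ebp alone, at 0.42.

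**Figure D2:**
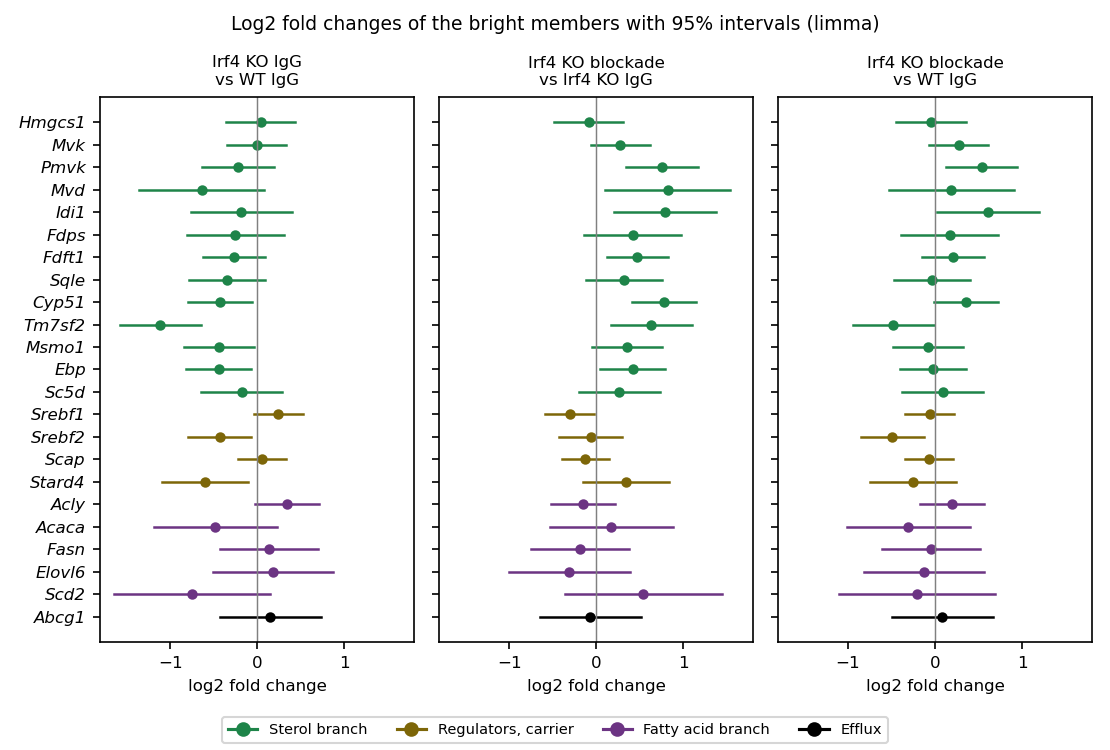
Log2 fold changes of the 23 bright members in the 3 comparisons, with points for the limma estimate and lines for its 95% interval, coloured by role. In the middle panel 12 of 13 sterol estimates lie above 0 and only that of Hmgcs1 lies below, while the fatty acid estimates fall on both sides of 0. No estimate passed the adjusted threshold.

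Relative to WT IgG, the 4 bright regulators and carriers went both ways in Irf4 KO IgG, with 2 above 0 and 2 below, and all 4 had a negative log2 fold change under blockade, with a median of -0.16, though Srebf1 and Scap were above 0 after scaling all genes by the array median. None passed. Srebf1, the SREBP-1 gene, had levels of 3057 and 3396 in WT IgG, 3792 and 3835 in Irf4 KO IgG and 3105 and 3071 under blockade. It was highest in Irf4 KO IgG, opposite to most of the sterol enzymes, by 0.24 over WT IgG (SE 0.11, limma adjusted p = 0.270), and the log2 fold change to blockade was -0.30 (SE 0.11, limma adjusted p = 0.157). Srebf2, the gene of SREBP-2, the main activator of the sterol genes, had 349 and 304, then 222 and 262, then 220 and 243. Both Irf4-/- groups were below WT IgG and overlapped each other, with log2 fold changes against WT IgG of -0.43 for Irf4 KO IgG (SE 0.15, limma adjusted p = 0.165) and -0.49 for blockade (SE 0.15, limma adjusted p = 0.168). Its log2 fold change from Irf4 KO IgG to blockade was -0.06 (95% interval -0.42 to 0.30). Scap, the escort protein, had 1468 and 1547, then 1534 and 1596, then 1402 and 1471, and its 3 log2 fold changes were between -0.12 and 0.05. Stard4, a cytosolic sterol carrier, had 314 and 351, then 263 and 182, then 264 and 292. All 4 arrays from Irf4-/- cells were below both WT IgG arrays, with log2 fold changes of -0.60 for Irf4 KO IgG (SE 0.20, limma adjusted p = 0.161) and -0.26 for blockade.

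The 5 bright fatty acid members had medians of 0.14, -0.15 and -0.13 in the 3 comparisons, and spread widely between arrays of a group. Acly, ATP citrate lyase, which supplies cytosolic acetyl-CoA to both branches, had levels of 4657 and 5878 in WT IgG, 6407 and 6866 in Irf4 KO IgG and 6082 and 5860 under blockade. It was highest in Irf4 KO IgG, by 0.34 over WT IgG (SE 0.15, limma adjusted p = 0.241). Acaca, acetyl-CoA carboxylase, had 675 and 1209, then 686 and 608, then 667 and 794. A single array, WT IgG array 2, was high, and the groups overlapped. Fasn, fatty acid synthase, had 4055 and 5844, then 4621 and 6212, then 4586 and 4833, with overlap in all 3 comparisons. Elovl6, which elongates palmitate, had 381 and 418, then 566 and 361, then 445 and 300, and its arrays differed as much within a group as between groups. Scd2, a stearoyl-CoA desaturase, had 1561 and 1984, then 923 and 1188, then 1054 and 2200. Irf4 KO IgG lay below WT IgG by 0.75 on the log2 scale (95% interval of the log2 fold change -1.65 to 0.15), and the blockade arrays lay on either side of the WT IgG pair. Abcg1, an efflux pump under LXR, had 1467 and 1740, then 2095 and 1499, then 1449 and 1977, and its log2 fold changes were 0.15, -0.07 and 0.08.

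**Figure D3:**
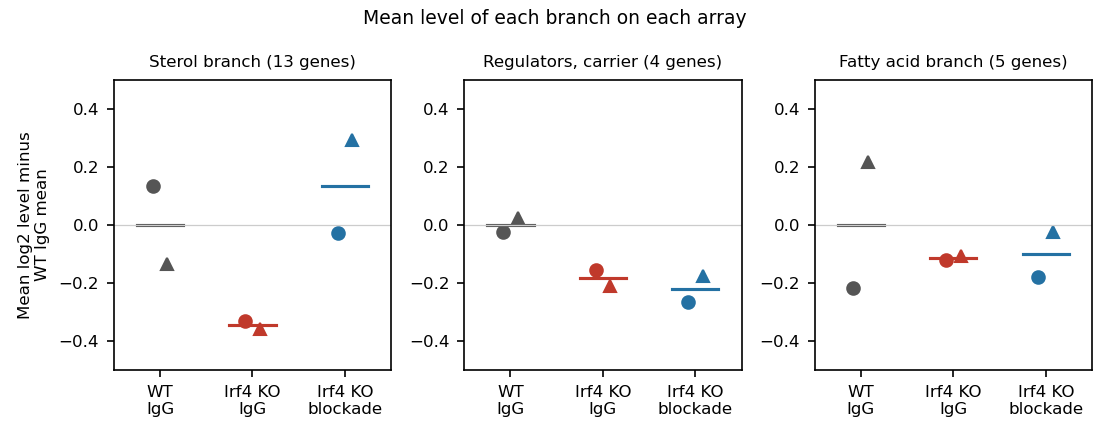
Mean normalised log2 level over the bright members of the sterol branch, the regulators with the carrier, and the fatty acid branch, minus the mean of the WT IgG arrays. Circles are array 1, triangles array 2 and lines the group mean. The Irf4 KO IgG arrays are the lowest for the sterol branch, and the WT IgG arrays enclose the 4 others for the fatty acid branch.

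Set against the fatty acid branch of the same array, the sterol branch was higher under blockade than in Irf4 KO IgG. The fatty acid mean was 10.55 and 10.99 in WT IgG, 10.65 and 10.66 in Irf4 KO IgG and 10.59 and 10.74 under blockade. The sterol mean minus the fatty acid mean was -0.50 and -1.21, then -1.07 and -1.11, then -0.71 and -0.54. The blockade arrays were above both Irf4 KO IgG arrays, while the WT IgG arrays lay 0.71 apart and enclosed both other groups. The median sterol log2 fold change minus the median fatty acid one was 0.57 from Irf4 KO IgG to blockade, -0.41 from WT IgG to Irf4 KO IgG and 0.29 from WT IgG to blockade. The value from WT IgG to Irf4 KO IgG rested on the WT IgG arrays. It was -0.011 without WT IgG array 1 and -0.65 without WT IgG array 2. Between blockade and WT IgG it was 0.64 without WT IgG array 1 and -0.19 without WT IgG array 2. From Irf4 KO IgG to blockade it was between 0.30 and 0.70 without any 1 of the 4 arrays compared.

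The 9 dim members have no place in the bright fit, and their intensities are not scaled between arrays. Weak probes tended to be brightest in Irf4 KO IgG: 82.4% of dim genes were above both WT IgG arrays on both of them, and 91.1% were below them on both blockade arrays. A dim gene could pass the filter through the Irf4 KO IgG arrays alone, so these shares are partly set by the filter. Each dim member was therefore read against all probes within 1 log2 unit of its WT IgG level, which did not have to pass that filter. Insig1, the inhibitor of SREBP processing and itself an SREBP target, had intensities of 83.4 and 99.4 in WT IgG, 282 and 451 in Irf4 KO IgG and 57.1 and 61.3 under blockade. It was 1.97 log2 units above WT IgG, where probes of like brightness had a median of 0.73, and 93.3% of those probes had a smaller difference. Scd1, the SREBP-1 and LXR target desaturase, had 5.17 and 4.40, then 105 and 167, then 3.59 and 4.59. It was well above background on the Irf4 KO IgG arrays alone. Its unscaled difference from WT IgG was 4.80 log2 units on those arrays, where probes of like brightness had a median of 1.87. A smaller difference was found for 93.8% of these probes. After scaling by the 75th percentile, Scd1 was at least 3.04-fold brighter in Irf4 KO IgG than in WT IgG and at least 2.69-fold brighter than under blockade. These bounds hold for that scaling alone. Its log2 fold change from WT IgG to Irf4 KO IgG was 3.59 there and 1.93 after scaling by the array median. From Irf4 KO IgG to blockade it was -3.48 and -1.69, so the bounds would be smaller under the array median. Scd1 entered the fit of all genes through the Irf4 KO IgG arrays alone, so its direction was set by the filter and no test is given. Insig1 did not pass there between Irf4 KO IgG and WT IgG (log2 fold change 0.77, limma adjusted p = 0.0676) and was called lower under blockade than in Irf4 KO IgG (-1.04, limma adjusted p = 0.0294). That fit called 45.1% of dim genes higher and 7.23% lower in Irf4 KO IgG than in WT IgG, and 44.4% lower and 7.96% higher under blockade than in Irf4 KO IgG. These shares are partly set by the filter too, so they describe the fit and test nothing about Insig1.

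Fads1 and Fads2, neighbouring desaturases of polyunsaturated fatty acids, were also brightest on the Irf4 KO IgG arrays. Fads1 had 16.2 and 30.3, then 177 and 537, then 31.8 and 40.1, and Fads2 had 14.5 and 15.4, then 58.0 and 203, then 8.23 and 14.8. Fads1 was not above background on WT IgG array 1, and Fads2 on no array of WT IgG or blockade. Their unscaled differences from WT IgG in Irf4 KO IgG were 3.79 log2 units for Fads1 and 2.86 for Fads2. Probes of like brightness had medians of 1.34 and 1.66, and 95.3% and 77.8% of them had a smaller difference. The fit of all genes called Fads1 higher in Irf4 KO IgG than in WT IgG (log2 fold change 2.59, limma adjusted p = 0.0111). Fads2 entered it through the Irf4 KO IgG arrays alone, and no test is given. After scaling by the 75th percentile, Fads2 was at least 2.49-fold brighter there than in WT IgG. Scaled by the array median in place of the 75th percentile, Fads1 had a log2 fold change of 0.93 from WT IgG to Irf4 KO IgG. It did not pass. Fads2 then had -0.01, and Insig1 had -0.90, the opposite direction.

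The 4 dim sterol enzymes went otherwise. Lss, lanosterol synthase, had 187 and 206, then 184 and 276, then 133 and 121. Nsdhl and Hsd17b7, which remove the C4 methyl groups with Msmo1, had 76.6 and 99.8, then 73.9 and 121, then 58.6 and 55.2, and 182 and 243, then 188 and 257, then 121 and 105. Dhcr7, the last reductase, had 204 and 231, then 195 and 332, then 109 and 168. In these unscaled intensities all 4 overlapped between Irf4 KO IgG and WT IgG and were lowest under blockade, where 28.6% of dim genes were below both WT IgG arrays. Their differences from WT IgG in Irf4 KO IgG, 0.20 for Lss, 0.11 for Nsdhl, 0.06 for Hsd17b7 and 0.23 for Dhcr7, exceeded those of only 23.1%, 12.2%, 15.7% and 26.9% of probes of like brightness. In the fit of all genes Irf4 KO IgG was the lowest group for each of them. Lss, Nsdhl and Hsd17b7 were called lower there than in WT IgG, with log2 fold changes of -1.00, -1.09 and -1.14 (limma adjusted p = 0.0246, 0.0179 and 0.0153), and Dhcr7, at -0.97, was not. That fit called 7.23% of dim genes lower, and in it bright genes as a whole had a median of -1.05. The 7.23% is over dim genes that include those entered through Irf4 KO IgG alone, which could hardly be called lower. From Irf4 KO IgG to blockade the log2 fold changes were 0.72, 0.82, 0.59 and 0.64 in the order Lss, Nsdhl, Hsd17b7 and Dhcr7. Only that of Nsdhl passed (limma adjusted p = 0.0377), where 7.96% of dim genes were called higher, a share with the same limit. With all genes quantile-normalised among themselves, Nsdhl was called at -2.25 and 2.04 in these comparisons. With the minimum lowered to a mean log2 of 7, Lss, Hsd17b7 and Dhcr7 could be fitted with the bright genes. Their log2 fold changes from WT IgG to Irf4 KO IgG were then -0.40, -0.54 and -0.35, and those from Irf4 KO IgG to blockade were 0.10, -0.02 and -0.01, and none passed. Abca1, the other efflux pump, had intensities from 3.18 to 65.9, was not above background on both arrays of any group and was not tested. Its unscaled difference from WT IgG in Irf4 KO IgG was 1.66 log2 units, where probes of like brightness had a median of 1.98.

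**Figure D4:**
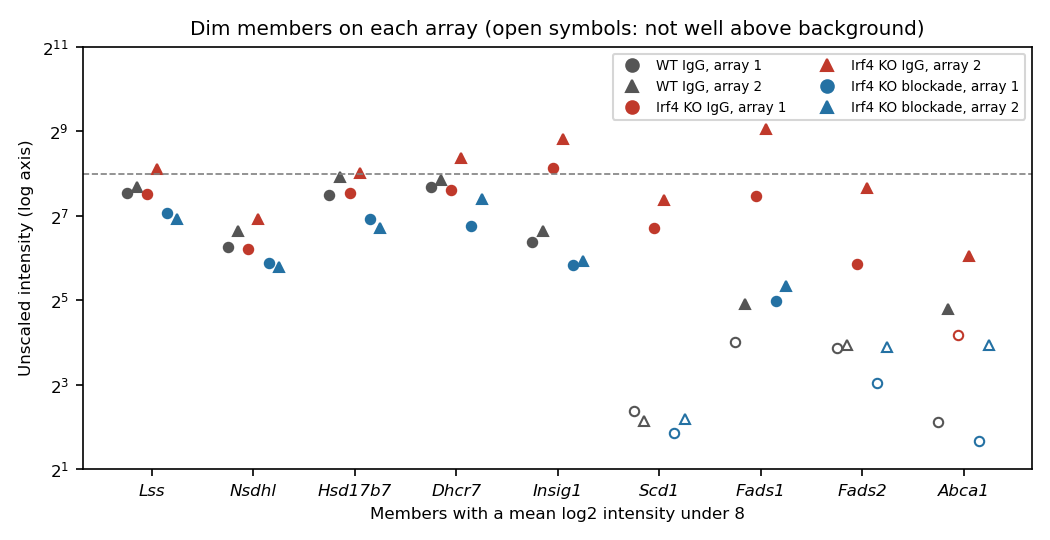
Intensity of the 9 dim members on each array, unscaled, on a log axis. Filled symbols were well above background, open ones were not, and the dashed line marks an intensity of 256, the minimum for bright genes. Insig1, Scd1, Fads1 and Fads2 are brightest in Irf4 KO IgG, whereas Lss, Nsdhl, Hsd17b7 and Dhcr7 overlap between Irf4 KO IgG and WT IgG.

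The calls on the members were different in the fit of all genes, which changes both the scaling and the minimum level. Bright genes as a whole there had median log2 fold changes of -1.05 from WT IgG to Irf4 KO IgG and 1.09 from there to blockade. In limma's adjusted test, that fit called 24 of 31 members lower and 2 higher in Irf4 KO IgG than in WT IgG, where 27.4% and 31.5% of all genes were, and the 2 higher were Scd1 and Fads1. It called 22 higher and 3 lower under blockade than in Irf4 KO IgG, where 27.9% and 30.9% were, and 0 members between blockade and WT IgG in either direction, where 0% were. Scd1 is among the 2 higher and the 3 lower, but its direction was set by the filter, so these calls test nothing about it. The shares over all genes are not those of genes of like level, since 23 of the 31 members were bright. Of the 7740 genes called lower in Irf4 KO IgG, 1421 were dim, and of the 7873 called higher under blockade, 1565 were dim. The rest were among the 8582 bright genes, so the 24 and 22 are not read as an excess of members. Relative to the median of bright genes, the 13 bright sterol members had medians of -0.19 and 0.37 in the first 2 comparisons, and 12 of 13 were above that median from Irf4 KO IgG to blockade.

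The other genes of these pathways were listed as well: 50 in sterol synthesis, sterol sensing, sterol transport, fatty acid metabolism and fatty acid oxidation, of which 39 were bright. None passed in any comparison at limma's adjusted threshold, and the medians were -0.07, 0.04 and -0.02. At an unadjusted p under 0.05, 3 were higher and 5 lower in Irf4 KO IgG than in WT IgG, where 10.6% and 12.8% of bright genes were. From Irf4 KO IgG to blockade 6 were higher and 2 lower, where 15.5% and 13% were, and from WT IgG to blockade 3 and 3, where 9.83% and 9.39% were. The 7 other sterol synthesis genes had medians of 0.07, 0.00 and -0.02.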

How the data were processed

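The deposited scanner files, 1 per array, give each spot's processed intensity, linear, with background already subtracted and no scaling between arrays. Per the file headers they came from Agilent Feature Extraction 11.0.1.1, whereas the submitters' processing notes name version 9.1. Per the labels' protocols, 0.5 µg of RNA was labelled with Cy3. The deposited value table repeats these values, each array divided by 1 number.

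Of 56605 probes, 1234 were left out because some array lacked a usable spot. RefSeq accessions named 58.3% of the 55371 used. The other probes kept their own systematic name, and each such name was counted as a gene. Probe positions are left out because the headers' genome build is not the reference's. Spots of 1 probe were averaged as log2 values. Probes entered if well above background on both arrays of at least 1 group, and the probe with the highest mean stood for a gene. Genes with a mean log2 of at least 8 were quantile-normalised among themselves and fitted with limma 3.58.1 in R 4.3.3 (lmFit and eBayes, 3 groups, 3 residual degrees of freedom). The procedure was tested on simulated data. With 2 arrays against 2, an exact two-sided permutation test cannot go below 0.333 and was not used. The number of arrays limits the precision, and p-values measure only the spread between these arrays.

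The fit of all genes subtracts each array's 75th percentile and takes 28249 genes. A fold given as "at least" sets the brighter group's mean against the lowest signal well above background. The members, the lists of other pathway genes and markers, the fit and its 20 other settings were chosen with earlier results of these data known. All members are named. Genes outside the members were taken from those lists, and those singled out among them were chosen after their values were seen.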

Additional observations from a re-analysis of the deposited data

How the results depend on the processing

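Each of the 20 other settings kept 0 called members between blockade and WT IgG. Between Irf4 KO IgG and WT IgG, limma called 26 of 31 members after scaling all genes by the 75th percentile and 29 (28 lower) after scaling by the array median, where 11.3% of all genes were called higher and 52.3% lower. It called 7 of 31 (5 lower) with no minimum level, where 20.2% of all genes were called. With quantiles over all probes it called 2 of 23, where 3.18% of genes were. These were Tm7sf2 (limma adjusted p = 0.0397) and Srebf2 (limma adjusted p = 0.0465). With a minimum mean log2 of 7 it called 1 of 26, Tm7sf2 (limma adjusted p = 0.0498), where 2.52% were. With the slide row as a block it called 1 of 23, again Tm7sf2 (limma adjusted p = 0.0498), where 1.03% were. The other 14 settings called 0. Between blockade and Irf4 KO IgG it called 25 under the 75th percentile and 28 (27 higher) under the array median, where 52.5% of all genes were called higher and 9.36% lower. It called 5 (3 higher) with no minimum, where 21.3% of all genes were called. With quantiles over all probes it called 1 of 23, Cyp51 (limma adjusted p = 0.04998), where 2.42% of genes were. With the median of bright genes it called 1 of 23, Pmvk (limma adjusted p = 0.0492), where 7.34% were. The other 15 settings called 0. Scd1, whose direction was set by the filter, is in the counts under the 75th percentile, the array median and no minimum in both comparisons with Irf4 KO IgG. Under the first 2 of these, bright genes as a whole had medians of -1.05 and -2.72 from WT IgG to Irf4 KO IgG. From there to blockade they were 1.09 and 2.88, so shares over all genes are not those of genes of like level. The cause of the changes between settings was not tested.

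The median sterol log2 fold change minus the median fatty acid one was positive from Irf4 KO IgG to blockade under all 20 settings (0.30 to 0.72). From WT IgG to Irf4 KO IgG it was negative under all 20, at -0.086 with a minimum of 9 and between -0.65 and -0.011 with 1 array left out. From WT IgG to blockade it was between -0.19 and 0.64 with 1 array left out. The 20 settings are not separate checks of this difference. From Irf4 KO IgG to blockade, the 2 blocks and the fit of only the 4 arrays compared reuse the same levels and gave the main 0.569. Scaling by the 75th percentile and by the array median both gave 0.566, because an array's scale drops out. Leaving out an array of the group not compared could change it only through the normalisation. Without blockade array 1, 12 of 13 sterol members were above WT IgG, and without blockade array 2, 5 were.

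The labels number the arrays of each group, but deviations of arrays with the same number had correlations of 0.02, 0.03 and -0.20, so the numbers were not taken to pair the arrays. With the replicate block, 0 members were called in each of the 3 comparisons, and over all bright genes the block moved the calls from 98 higher and 62 lower to 17 and 6 between Irf4 KO IgG and WT IgG. Of the members' own log2 fold changes under other settings, 1233 were not called and kept their direction or stayed within 1 SE, 71 passed the threshold in the same direction, 28 changed sign without a call and 27 were called with the opposite sign. Most of the 71 came from scaling all genes by the 75th percentile or the array median. In the 2 comparisons with Irf4 KO IgG, these scalings called 58.8% to 63.6% of all genes. All 27 of opposite sign came from the same 2 scalings. From WT IgG to Irf4 KO IgG they were, under the first, -0.88 for Acly, -1.07 for Fasn, -0.89 for Srebf1, -0.99 for Scap and -0.97 for Hmgcs1, and under the second -2.55, -2.73, -2.56, -2.66 and -2.64 for these, -2.57 for Abcg1 and -2.32 for Elovl6. From Irf4 KO IgG to blockade they were, under the first, 1.13 for Acly, 1.07 for Fasn, 0.87 for Srebf1, 0.96 for Scap, 0.96 for Hmgcs1, 1.03 for Abcg1 and 0.72 for Srebf2, and under the second 2.92, 2.85, 2.65, 2.75, 2.75, 2.82 and 2.51 for these and 2.31 for Elovl6. Signal over background limits the 9 dim members.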

Other observations

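The 7 genes of mitochondrial fatty acid oxidation, which burns the chains that the fatty acid branch makes, were all bright, and none passed in limma's adjusted test. Irf4 KO IgG lay below WT IgG without overlap for 6 of the 7, where 29.2% of bright genes did, and their median log2 fold change was -0.29. Cpt1a, the carrier step that admits fatty acids to mitochondria, had levels of 2094 and 1282 in WT IgG, 754 and 1027 in Irf4 KO IgG and 1288 and 893 under blockade (log2 fold change -0.90 from WT IgG to Irf4 KO IgG, limma adjusted p = 0.172). Hadha, the trifunctional protein's alpha subunit, had 438 and 400, then 332 and 359, then 467 and 527. Its blockade arrays were the 2 highest, 0.52 above Irf4 KO IgG (limma adjusted p = 0.0817).

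Tmem97, the sigma-2 receptor, which binds the cholesterol exporter NPC1, had levels of 217 and 233 in WT IgG, 185 and 226 in Irf4 KO IgG and 363 and 421 under blockade. Its log2 fold change of 0.94 from Irf4 KO IgG to blockade (limma adjusted p = 0.0628) exceeded that of every bright sterol member, and it was 0.80 from WT IgG to blockade (limma adjusted p = 0.0826). Rxra, the partner of LXR, had 1621 and 1319, then 1005 and 720, then 734 and 751. Its arrays from Irf4-/- cells were below those from WT cells, with a log2 fold change of -0.98 from WT IgG to blockade (limma adjusted p = 0.0877). Rxrb, another such partner, went the other way, with 4945 and 3948, then 6234 and 6383, then 5316 and 5679, and log2 fold changes against WT IgG of 0.51 in Irf4 KO IgG (limma adjusted p = 0.128) and 0.31 under blockade (limma adjusted p = 0.314). Cpt1a, Hadha, Tmem97, Rxra and Rxrb were chosen after their values were seen.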
